A study of Mus musculus with 3 samples.

Results

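The 43 genes described here are used in, or commonly read with, mitosis and the G2 phase before it, and were taken by symbol from the 50507 genes of the count table. By role they fall into 6 cyclins, Cdk1 and CKS proteins, 7 mitotic kinases and spindle checkpoint proteins, 3 ubiquitin ligase partners, 5 centromere and chromosomal passenger proteins, 9 spindle motors and microtubule proteins, 6 cytokinesis proteins, 6 chromosome structure proteins and Arl6ip1. Together they took 47619 of 10554052 counts, 0.451% of all, and Arl6ip1 alone, a membrane protein of the endoplasmic reticulum, held 24.3% of their counts. A low-count filter was passed by 3013 genes, and 26 of the 43 were among them. The other 17 (Cdk1, Cks2, Aurka, Aurkb, Plk1, Ttk, Bub1, Bub1b, Cdc20, Cdca3, Kif2c, Kif4, Kif20a, Kif23, Racgap1, Ect2 and Ncapd2) held 3673 counts in all and are given as levels only, with no test. The filter keeps a gene that is high in any of the conditions, so that a gene could pass through the days on which it was high, and medians of the main comparisons are also given over all 43 genes, from a fit without the filter.

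The study followed primary mouse embryonic fibroblasts (MEFs) of BL6 mice, wild-type and reprogrammed at passage 2, through the first 6 days towards pluripotency. The cells were transduced with tet-STEMCCA, a lentivirus that carries Oct4, Sox2, Klf4 and c-Myc under a tetracycline-inducible promoter, and with the transactivator rtTA, and reprogramming was started with doxycycline in medium with chiron (a GSK3 inhibitor), an Alk5 inhibitor, ascorbic acid and LIF. In the screen the cells were transfected with 40 nM of pooled siRNAs against 1 of 33 regulators, or with a non-targeting siRNA (nt), and replated 24 h later for collection on day 6 beside libraries named Mock, and in the time course untransfected cells were replated and collected on each day from Day00 to Day06. Bulk RNA was counted by CEL-Seq2, which reads transcript 3′ ends and counts unique molecules, in 127 libraries: 21 from the time course, 98 from siRNAs, 5 Mock and 3 nt. The Mock libraries come from 3 replicates, and in replicates 1 and 2 a pair of columns has the same name, so that each pair may be repeats of 1 sample. Neither pair agreed within counting noise: a chi-square test of the counts over genes gave 1.79 and 1.67 per degree of freedom, beside 1.35 to 2.27 for Mock libraries of unlike replicates. The virus was added at a multiplicity of infection of 1, so that a library can hold cells without the cassette. Labels give the replicate pool, the column names give the condition, and nothing says whether replicates came from separate embryos. The fit has terms for condition and replicate pool. Its p-values measure the spread of libraries that these terms leave, taken over all 127 libraries, and cannot be read as a spread between embryos.

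Total counts per library ran from 29656 to 235292 with a median of 73279, and the median was 64227, 63122 and 127079 in replicates 1, 2 and 3. Intervals cover counting error only. Of 12 fibroblast marker genes all 12 had counts on Day00, Day03 and Day06, and their summed share of all counts was 0.598% to 0.771% on Day00, 0.348% to 0.381% on Day03 and 0.283% to 0.375% on Day06. Not every gene of it went that way: Dcn was at means of 22.4, 187 and 221 CPM (counts scaled to a common library total, with library sizes corrected by the TMM method of edgeR) on these days and Lum at 5.52, 41.5 and 123. The 7 markers of early reprogramming epithelium summed to 0.000769% to 0.00212% on Day00, 0% to 0.00233% on Day03 and 0.00905% to 0.0259% on Day06. Markers of endothelium, keratinocytes and muscle summed to at most 0.00571%, 0.00443% and 0.00364% in any library, with Cdh5 and Myod1 at 0 in all, and those of macrophages and of neural cells to at most 0.0221% and 0.0270%. Their part in the results below was not tested.

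In a dividing cell the transcripts of these genes build up through S phase and G2, peak as the cell enters mitosis and are low in the next G1. The kinase Cdk1 with cyclin A or cyclin B starts mitosis, condensin and topoisomerase II shape the chromosomes, kinesins build the spindle, centromere proteins hold the chromosomes to it, and the anaphase-promoting complex ends mitosis by marking cyclins for destruction. Repressor and activator complexes that bind CCAAT boxes and cell cycle homology regions (CHR) in their promoters are known to time their transcription. A bulk level of such genes is commonly read as a sign of how many cells are dividing, but fewer cells in G2 and mitosis and less of each RNA per such cell cannot be told apart in these libraries.

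Because the 43 genes are known for shared promoter elements, their promoters were searched for both. The windows ran from 250 bases before to 50 after each start in RefSeq on GRCm38.p6, and 38 of the 43 genes had 1 or more windows, 41 in all. CCAAT on either strand (ATTGG on the other) was found in 36 of the 41 windows, 87.8%, against 37.4% of all 32851 promoters in the table, and 63.4% held at least 2 against 11.7%. A CHR-like hexamer (TTTGAA, its reverse complement TTCAAA, or the palindrome TTCGAA) was found in 85.4% against 19.2%, and both elements in 78.0% against 7.52%. These are matches of letters and not sites shown to be bound. The promoters of 6 genes on which the results below turn are printed from 250 bases before to 30 after the start, 5′ to 3′ on the strand of the gene, with both motifs in capitals. They are Top2a (chr11:99024160-99024439, minus strand), Ube2c (chr2:164769679-164769958, plus strand), Birc5 (chr11:117848987-117849266, plus strand), Hmgb2 (chr8:57511593-57511872, plus strand), Kif20b (chr19:34922108-34922387, plus strand) and Arl6ip1 (chr7:118129596-118129875, minus strand).
Top2a: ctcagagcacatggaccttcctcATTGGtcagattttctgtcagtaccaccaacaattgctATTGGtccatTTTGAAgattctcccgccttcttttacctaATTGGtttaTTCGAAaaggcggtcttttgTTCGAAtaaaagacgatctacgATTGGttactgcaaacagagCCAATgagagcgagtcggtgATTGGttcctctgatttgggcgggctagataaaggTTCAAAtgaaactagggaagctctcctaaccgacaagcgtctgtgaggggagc
Ube2c: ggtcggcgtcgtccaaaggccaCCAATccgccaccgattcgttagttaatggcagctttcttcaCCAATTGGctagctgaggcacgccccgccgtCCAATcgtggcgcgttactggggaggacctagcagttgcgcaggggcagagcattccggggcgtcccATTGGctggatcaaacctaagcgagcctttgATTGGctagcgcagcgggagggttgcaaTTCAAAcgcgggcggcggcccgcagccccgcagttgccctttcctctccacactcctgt
Birc5: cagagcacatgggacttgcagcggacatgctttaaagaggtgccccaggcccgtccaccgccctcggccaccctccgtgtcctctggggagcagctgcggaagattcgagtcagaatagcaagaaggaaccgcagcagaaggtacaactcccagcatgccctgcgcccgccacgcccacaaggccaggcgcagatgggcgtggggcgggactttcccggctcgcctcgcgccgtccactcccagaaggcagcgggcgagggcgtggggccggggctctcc
Hmgb2: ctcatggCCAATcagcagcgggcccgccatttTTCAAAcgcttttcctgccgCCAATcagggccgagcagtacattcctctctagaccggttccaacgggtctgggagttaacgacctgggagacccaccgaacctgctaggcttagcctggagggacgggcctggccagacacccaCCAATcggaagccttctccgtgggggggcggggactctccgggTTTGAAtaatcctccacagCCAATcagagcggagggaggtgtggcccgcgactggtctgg
Kif20b: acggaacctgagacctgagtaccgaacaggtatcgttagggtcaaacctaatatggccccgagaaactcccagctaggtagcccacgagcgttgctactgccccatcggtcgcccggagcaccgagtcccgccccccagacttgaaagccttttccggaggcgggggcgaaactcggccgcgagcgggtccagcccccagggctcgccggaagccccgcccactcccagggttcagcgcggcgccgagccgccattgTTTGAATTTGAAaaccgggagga
Arl6ip1: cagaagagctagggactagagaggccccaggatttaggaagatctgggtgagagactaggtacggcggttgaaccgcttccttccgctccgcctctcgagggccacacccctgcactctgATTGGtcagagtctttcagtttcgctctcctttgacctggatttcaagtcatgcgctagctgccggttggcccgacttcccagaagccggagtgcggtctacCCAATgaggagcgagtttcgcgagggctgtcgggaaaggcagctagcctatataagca
Top2a held 6 CCAAT and 4 CHR-like matches, Ube2c 6 and 1 (in Ube2c a pair of the former overlaps), and Hmgb2 4 and 2. Kif20b held 0 and 2, Arl6ip1 2 and 0, and Birc5 none of either in this window, which says nothing of elements elsewhere.

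The time course asks how transcripts of mitosis and G2 move while fibroblasts start to reprogram. Their sum was highest on Day01, lowest on Day03 and above the start on Day06. The summed counts of the 43 genes were 0.452%, 0.371% and 0.407% of all counts in replicates 1 to 3 of Day00, and 0.650%, 0.695% and 0.615% on Day01. They were 0.361%, 0.468% and 0.332% on Day02, and 0.214%, 0.255% and 0.169% on Day03. Every Day03 library lay below every library of the other days, and every Day01 library above all others of the time course. On the TMM-scaled library size the Day06 library of replicate 2, at 5838 CPM, lay above those of Day01 in replicates 1 and 3, at 5777 and 5511. The sum was 0.459%, 0.472% and 0.422% on Day04, 0.465%, 0.474% and 0.367% on Day05, and 0.511%, 0.597% and 0.498% on Day06. The ratio of the means was 1.59 for Day01 over Day00, 0.519 for Day03 over Day00 (0.473, 0.688 and 0.416 by replicate) and 2.52 for Day06 over Day03 (2.39, 2.34 and 2.94). Day06 lay above Day00 in each replicate, with a ratio of 1.31. No test was made on the sums. The Day03 libraries held 64055, 63122 and 128786 counts, against medians of 64227, 63122 and 127079 in the 3 replicates.

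**Figure D1:**
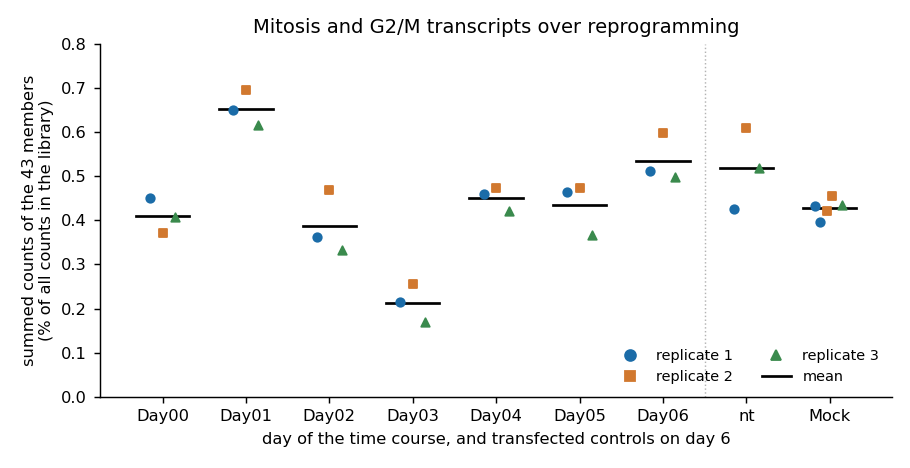
Summed counts of the 43 genes as a percent of all counts in each library (vertical axis) for Day00 to Day06 and for the transfected controls nt and Mock on day 6 (horizontal axis), with replicates as symbols and the mean as a bar. The 3 Day03 libraries sit between 0.169% and 0.255%, below all others plotted.

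Of the 43 genes 31 had their lowest mean on Day03, 21 of the 26 that were tested and 10 of the 17 that were not. The highest mean was on Day01 for 17 genes, on Day05 or Day06 for 14 and on Day00 for 6. An edgeR test for any change over the 7 days, with a term for the replicate pool (the replicate block), called 16 of the 26 at an adjusted p under 0.05, where 42.5% of all tested genes were called. Without replicate 3 it called 7, of 19 genes that then passed the filter. The 17 untested genes together held 0.0431% of all counts on Day00, 0.0633% on Day01, 0.0151% on Day03 (39 counts in the 3 libraries) and 0.0470% on Day06. Among them Cdk1, the kinase that starts mitosis, was at its lowest, 6.02 CPM, on Day03, with 1 count, and at its highest, 40.9 CPM, on Day06.

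**Figure D2:**
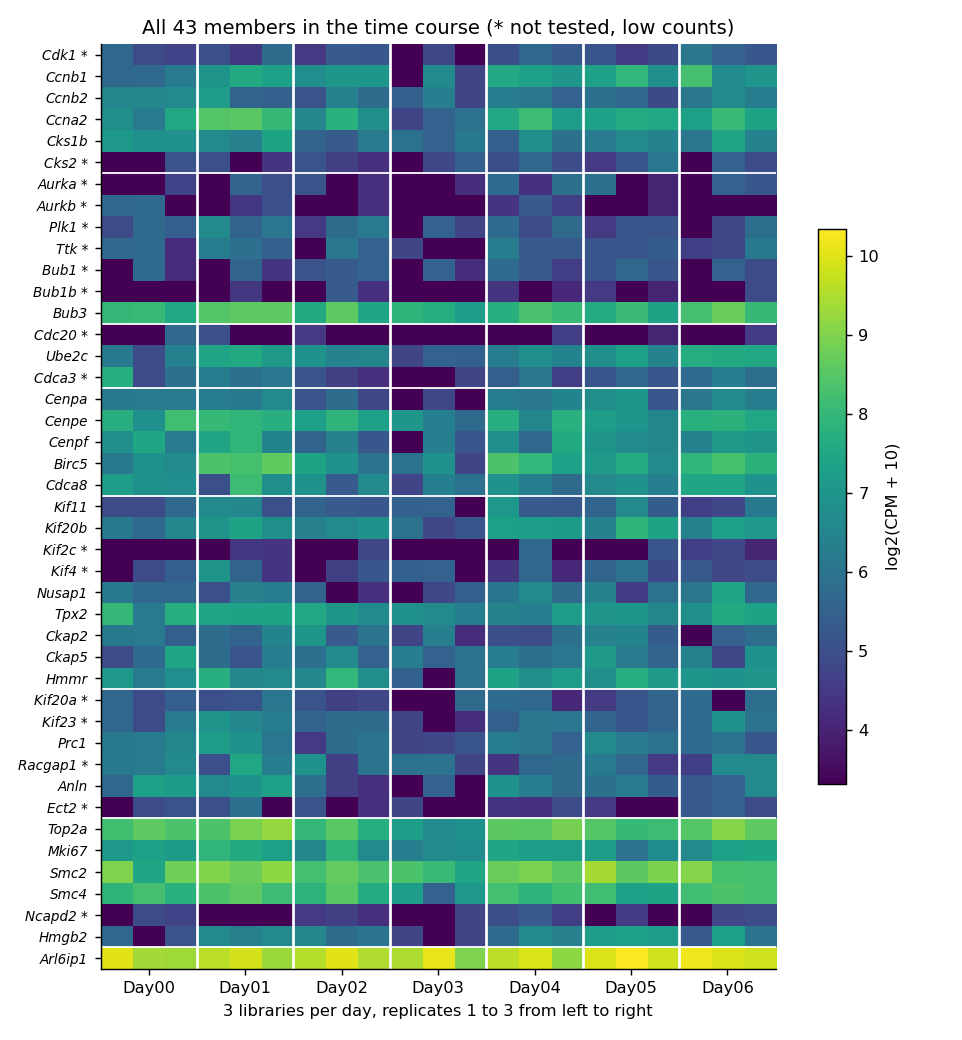
Level of each of the 43 genes (rows, grouped by role, with an asterisk where low counts kept a gene from being tested) in the 21 time course libraries (columns, 3 per day), as log2 of CPM plus 10 on the colour scale. The Day03 columns are the darkest for 31 of the 43 rows by their mean.

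Against Day00, Day03 had 6 of the 26 tested genes lower and 0 higher (23.1% of them called, where 10.9% of all 3013 tested genes were called, 5.11% higher and 5.81% lower). Their median log2 fold change was -1.05, with 0 of 26 above 0, against 0.01 over all tested genes. Without the filter the median of all 43 was -1.02, with 2 of 43 above 0. Top2a, the topoisomerase that untangles sister chromosomes (chromosome 11, 98992943 to 99024189, mm10), was at 287, 381 and 314 CPM on Day00 and at 140, 90.3 and 106 on Day03. All Day03 libraries lay below all Day00 libraries, a log2 fold change of -1.53 ± 0.34 (SE) at an adjusted p of 0.000285 in edgeR, and this call held under each of 9 alternatives. Anln, an actin-binding scaffold of the cleavage furrow, was at 41.1, 148 and 132 CPM on Day00 and at 0, 36.1 and 0 on Day03. Its 2 counts on Day03 put it 13.0-fold below Day00, with 95% limits from counting of 3.25 and 114, at an adjusted p of 0.000921 in edgeR. Cenpa, the histone H3 of centromeres, was at 61.6, 63.5 and 66.2 CPM on Day00 and had 1 count on Day03, 14.6-fold below Day00 (limits 2.22 and 618) with an adjusted p of 0.00603 in edgeR. Each of the 3 was lower on Day03 in every library than in any of Day00.

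The other 3 calls on Day03 were Ccna2, cyclin A2, with a log2 fold change of -1.68 ± 0.55, Cenpe, a kinetochore kinesin, with -1.60 ± 0.45, and Smc4, a condensin core subunit, with -1.17 ± 0.38. The Cenpe libraries of the 2 days overlapped, while those of Ccna2 and Smc4 did not. The Smc4 call was lost whichever replicate was dropped (0.0514 to 0.379). Leaving out replicate 1, 2 or 3 gave 3, 5 and 1 calls, and Top2a was the gene called in each. Without replicate 3 the adjusted p was 0.369 for Ccna2, 0.597 for Cenpe, and Anln and Cenpa did not pass the filter. Without replicate 1 that of Cenpa was 0.0606 and of Ccna2 0.111. Arl6ip1, the gene with the most counts of the 43, was at 1026, 656 and 637 CPM on Day00 and at 699, 1102 and 493 on Day03. Its log2 fold change was -0.08 ± 0.20 (edgeR adjusted p 0.859), and it turned positive without replicate 1 or 3.

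From Day03 to Day06, 14 of the 26 tested genes rose and 0 fell, 53.8% of them, where 15.9% of all tested genes were called and 7.93% were higher. Their median fitted log2 fold change was 1.47, with 26 of 26 above 0, and without the filter the median of all 43 was 1.60, with 42 above 0. By mean CPM, Ckap2 was lower on Day06 than on Day03. RLE, another scaling of the libraries, moved the median of all genes by -0.13, and the median of the 26 less that of all genes was 1.46 under both scalings. Day03 is shared by this comparison and the one before, so that they are not independent of each other. Leaving out replicate 1, 2 or 3 gave 9, 10 and 7 calls, DESeq2 gave 7 and a fit without the low-count filter 7. Birc5, Ccna2, Smc4, Top2a and Ube2c were called in all 9 alternatives.

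By role, all 5 centromere and passenger proteins rose, 2 of 4 tested cyclins and CKS proteins, the 1 tested ubiquitin ligase partner, 2 of 7 spindle proteins, 1 of 2 cytokinesis proteins and 3 of 5 chromosome structure proteins. Cenpa was at 59.3, 90.4 and 68.2 CPM on Day06 against 1 count on Day03, a count ratio of 16.0 (95% limits from counting of 2.54 and 663) at an edgeR adjusted p of 0.00211. Birc5, survivin, which places Aurora B on centromeres, went from 52.5, 108 and 17.6 CPM to 237, 307 and 218, a log2 difference of 2.28 ± 0.46 (edgeR adjusted p 5.47e-05). The Day06 libraries of both lay above all of Day03. Cenpf, a kinetochore protein whose transcript end matches other genes, rose by 1.74 ± 0.63, Cdca8, borealin, by 1.46 ± 0.53 and Cenpe by 1.40 ± 0.45. Cdca8 passed the threshold in none of the fits that left out a replicate, and Cenpe and Cenpf in 1 each, without replicate 1 (adjusted p 0.0248) and without replicate 2 (0.0351).

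Ube2c, the ubiquitin-conjugating enzyme of the anaphase-promoting complex, was at 17.5, 36.1 and 35.2 CPM on Day03 and at 193, 181 and 170 on Day06. All 3 libraries lay above those of Day03, with a log2 difference of 2.47 ± 0.49 (edgeR adjusted p 4.99e-05). Of the cyclins, Ccnb1 was at 0, 90.3 and 17.6 CPM on Day03 and at 297, 90.4 and 116 on Day06, and its lowest Day06 library equals its highest of Day03 within 1 CPM. Its log2 fold change of 2.30 ± 0.58 had an edgeR adjusted p of 0.002, and of 0.187 without replicate 1. Ccna2 rose by 2.12 ± 0.50. Ccnb2, the paralog of Ccnb1, had 35.0, 72.3 and 17.6 CPM on Day03 and 59.3, 90.4 and 68.2 on Day06 (log2 fold change 0.95 ± 0.66, edgeR adjusted p 0.366). Cks1b, a small CDK-binding protein, had a log2 fold change of 0.77 ± 0.57 (adjusted p 0.393), and its paralog Cks2 had 5 or fewer counts on each of these days.

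Of the chromosome structure genes, Top2a went from 140, 90.3 and 106 CPM to 341, 524 and 382 on Day06, a log2 fold change of 1.86 ± 0.31 and the smallest adjusted p of the 26 (edgeR, 1.07e-06). Smc4 rose by 1.48 ± 0.35, from 140, 36.1 and 123 CPM to 282, 325 and 293. Smc2, its condensin partner, had 315, 253 and 167 CPM on Day03 and 519, 307 and 293 on Day06, with overlap and a log2 difference of 0.64 ± 0.29 (edgeR adjusted p 0.123). Hmgb2, a DNA-bending chromatin protein, had 3 counts on Day03 and 18 on Day06, a count ratio of 5.04 (95% limits from counting of 1.47 and 26.7) at an edgeR adjusted p of 0.0294, and was called without replicate 1 but not without 2 (0.359) or 3 (0.1).

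Among spindle and cytokinesis genes, Kif20b, a kinesin of late mitosis, went from 52.5, 18.1 and 26.4 CPM to 74.2, 145 and 123 (log2 fold change 1.83 ± 0.60, edgeR adjusted p 0.0235), and Hmmr, a spindle assembly factor, rose by 1.67 ± 0.55. Kif20b was called without replicate 1, but not without 2 (0.118) or 3 (0.28), and Hmmr in none of these fits (0.0639 to 0.15). Anln, with 2 counts on Day03 and 17 on Day06, had a count ratio of 7.14 (95% limits from counting of 1.69 and 63.7) at an edgeR adjusted p of 0.0331. Its libraries overlapped, and without replicate 1 its adjusted p was 0.0965. Kif11, Nusap1, Tpx2, Ckap2 and Ckap5 did not pass the threshold, with log2 fold changes from 0.26 for Ckap2 to 1.66 for Nusap1. The mean of Ckap2 was lowest of all days on Day06, at 28.0 CPM, so that its means run against its fitted sign. Arl6ip1 was at 1157, 994 and 899.8 CPM on Day06, within the Day03 range in 2 libraries and above it in 1 (log2 fold change 0.49 ± 0.19, edgeR adjusted p 0.0514).

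**Figure D3:**
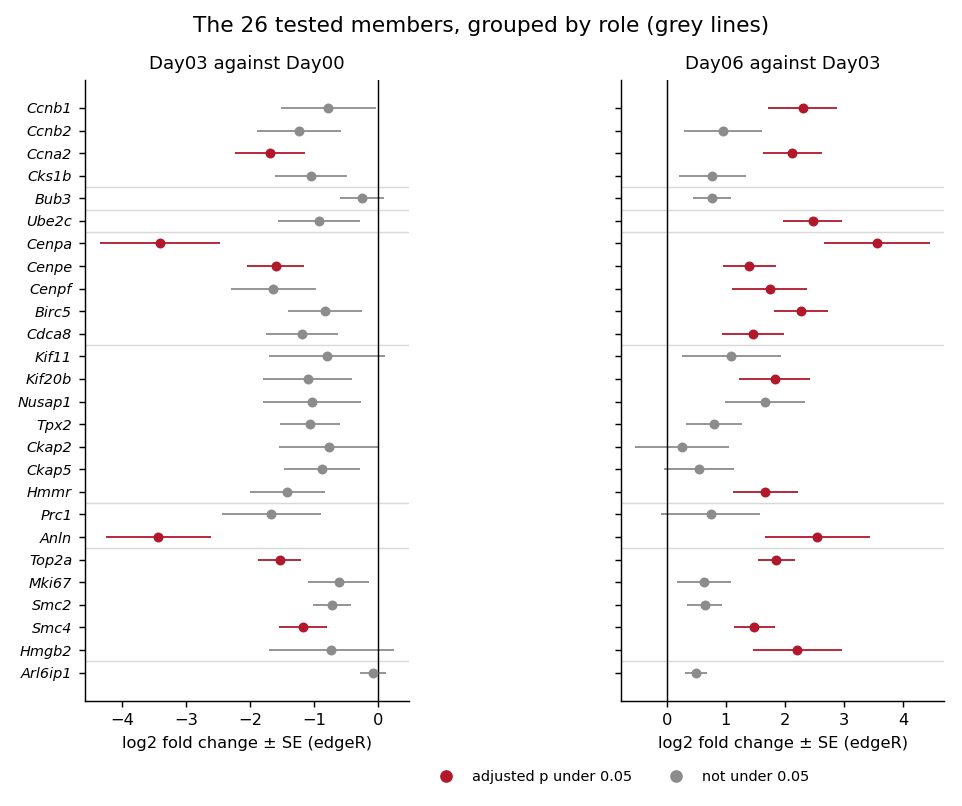
Log2 fold changes with SE (horizontal axis, edgeR) of the 26 tested genes (rows, with grey lines between roles) for Day03 against Day00 on the left and Day06 against Day03 on the right, in red where the adjusted p was under 0.05. All 26 points lie below 0 on the left, 6 of them red, and above 0 on the right, 14 of them red.

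The other days were each set against Day00, whose libraries these comparisons share. On Day01, 3 genes were higher and 0 lower, where 3.09% of all tested genes were higher and 6.80% lower. Birc5 went from 61.6, 106 and 91.0 CPM to 321, 305 and 387, a log2 difference of 1.89 ± 0.40 (edgeR adjusted p 0.000149), and this call held in all 9 alternatives. Ccna2 was at 103, 63.5 and 174 CPM on Day00 and at 344, 366 and 251 on Day01 (log2 fold change 1.22 ± 0.36), but without replicate 1 or 2 its adjusted p was 0.0843 and 0.193. Ube2c was at 61.6, 21.2 and 74.5 CPM on Day00 and at 160, 183 and 125 on Day01, with an adjusted p of 0.0494, lost whichever replicate was dropped (0.076 to 0.403). No library of the 3 genes overlapped between the days. On Day02, 1 gene was lower and 0 higher, where 6.44% and 5.14% of all were: Anln, with 6 counts against 25, had a log2 fold change of -2.23 ± 0.66 and an adjusted p of 0.176 without replicate 2, and the days overlapped. Without replicate 3 it did not pass the filter.

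On Day04, Ccnb1 and Birc5 were higher, where 8.30% of all genes were higher and 10.4% lower. Ccnb1 went from 41.1, 42.3 and 66.2 CPM to 179, 152 and 116 and Birc5 to 325, 243 and 152, without overlap for either gene. Birc5 had an adjusted p of 0.149 without replicate 1, and Ccnb1 of 0.0805 to 0.132 in the fits without a replicate. On Day05, 3 genes were higher and 1 lower, where 16.8% and 15.0% of all were. Hmgb2 had 41.1, 0 and 24.8 CPM on Day00 and 140, 146 and 142 on Day05, a log2 difference of 2.54 ± 0.57 (edgeR adjusted p 0.000147) that held in all 9 alternatives. Ccnb1 was higher by 1.47 ± 0.51 and Arl6ip1 by 0.45 ± 0.18, and Cenpe was lower, with -1.02 ± 0.38. Arl6ip1 and Cenpe overlapped with Day00, and without replicate 3 their adjusted p was 0.288 and 0.715. Without replicate 2 that of Arl6ip1 was 0.254 and of Ccnb1 0.145, and without replicate 1 that of Cenpe was 0.0512. On Day06, Ube2c (1.55 ± 0.44), Ccnb1 (1.52 ± 0.52) and Birc5 (1.45 ± 0.41) were higher than on Day00 with no overlap, where 10.7% of all genes were higher and 11.5% lower. Ccnb1 had an adjusted p of 0.334 without replicate 1, where its Day06 library was at 297 CPM. RLE scaling moved the median of all genes by -0.15 on Day02, -0.16 on Day04, -0.21 on Day05 and -0.16 on Day06.

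The rest of the cell cycle was read from 3 further lists. Of 73 other G2/M genes 13 were tested, of 60 DNA replication and S phase genes 15, and of 37 regulators of the cycle 8. On Day03 against Day00, where 5.81% of all tested genes were lower and 5.11% higher, 1 of 13 other G2/M genes was lower and 0 higher (median -1.49), 0 of 15 S phase genes passed under edgeR, with 2 at an unadjusted p under 0.05 (median -0.68), and 3 of 8 regulators were higher and 0 lower. The G2/M gene was Spc25, a kinetochore subunit, with -1.49 ± 0.53 (edgeR adjusted p 0.0498). The regulators were cyclin D1 Ccnd1 (111 CPM to 452, log2 fold change 2.13 ± 0.33), cyclin D2 Ccnd2 (0.73 ± 0.17) and the CDK inhibitor Cdkn1a (756 CPM to 1193, 0.61 ± 0.20).

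From Day03 to Day06, where 7.93% of all tested genes were higher, 5 of 13 other G2/M genes rose and 0 fell (median 1.60), as did 4 of 15 S phase genes (median 1.16), while 1 regulator rose and 1 fell. Aspm, a spindle pole protein, went from 2 counts to 18, and Mad2l1, the checkpoint protein, from 0 counts to 12. The libraries of Mad2l1 overlapped, with 1 Day06 library at 0. The lowest Day06 library of Aspm, at 18.1 CPM, was level with its highest of Day03. Uhrf1 rose by 2.36 ± 0.58, the helicase subunit Mcm2 by 2.12 ± 0.52 and the dUTPase Dut by 1.97 ± 0.30. Cdk4, the partner of cyclin D, rose by 0.85 ± 0.28, and Mdm2, the ligase of p53, fell with -0.99 ± 0.30 (edgeR). Summed, the S phase list took 0.223%, 0.222% and 0.211% of all counts on Day00, 0.126%, 0.146% and 0.109% on Day03 and 0.369%, 0.398% and 0.307% on Day06. Its Day03 libraries also lay below those of every other day.

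The controls of the screen set transfected beside untransfected cells of day 6. In the nt libraries the 43 genes summed to 0.426%, 0.610% and 0.518% of all counts, overlapping Day06, with a ratio of the means of 0.968 (1.19 on the TMM-scaled library size). Against Day06, nt had 4 of the 26 genes higher and 1 lower, where 15.6% and 11.0% of all tested genes were, and the median of the 26 was 0.00, and -0.06 over all 43 without the filter. Hmgb2 had 29.7, 145 and 54.5 CPM on Day06 and 300, 299 and 261 in nt (log2 fold change 2.04 ± 0.39, edgeR adjusted p 1.28e-05). Kif20b had 74.2, 145 and 123 CPM on Day06 and 283, 389 and 286 in nt (1.45 ± 0.36), and Arl6ip1 1157, 994 and 899.8 against 1382, 2154 and 1536 (0.72 ± 0.16). All nt libraries of these 3 genes lay above all of Day06, and the calls held in each fit without a replicate. Smc2 was higher by 0.70 ± 0.24, with overlap, and its adjusted p became 0.0648 when replicate 2 was dropped and 0.739 when replicate 3 was. Bub3, a spindle checkpoint protein, was lower: 297, 416 and 252 CPM on Day06 and 66.6, 224 and 147 in nt, -1.05 ± 0.32, with no overlap, and its adjusted p became 0.13 when replicate 1 was dropped and 0.0532 when replicate 2 was. RLE scaling moved the median of all genes by -0.14 here.

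Mock libraries summed to 0.396% to 0.455%, and 3 of the 5 lay within the range of nt. Between Mock and nt edgeR called 0 of the 26 genes, where 1.56% of all were called, with 5 at an unadjusted p under 0.05, and DESeq2 and limma also called 0. The median log2 fold change of the 26 was -0.47, with 7 of 26 above 0, against 0.01 over all tested genes, and over all 43 without the filter it was -0.42. Without replicate 1, 2 or 3 it was -0.31, -0.30 and -0.16, and under limma -0.22. Without replicate 1 edgeR called 1 gene, Top2a. With the Mock columns of one name summed to 1 library it called 0 of 25, with a median of -0.44. The nt libraries alone are the control of the comparisons that follow, which all share them.

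The siRNA against Cdk1 targets a gene of the list itself. The siRNAs were pooled, and the match was made for the pair listed under its older symbol Cdc2a, while others of the pool were not analysed here. Both match Cdk1 alone, in coding exons 4 and 5 (chr10:69345137-69345155 and chr10:69342593-69342611, mm10). The sense strands are printed with the bases that match in capitals and the overhang in lower case.
siRNA 1: GGCUGUAUCUCAUCUUUGAtt
siRNA 2: GGAACAAUCAAACUGGCUGtt
Cdk1 had 1, 2 and 1 counts in replicates 1 to 3 of siCdk1, 4 in all, where 5.80 were expected from its share in the 103 other transfected libraries (189 counts). The ratio was 0.689, with exact 95% limits from counting of 0.188 and 1.76, so that a lowering could not be shown at this depth. The summed counts of the 43 genes in siCdk1 were 0.378%, 0.412% and 0.382%, all below nt. Of the 26 tested genes 1 was lower, where 1.06% of all genes were: Arl6ip1, at 1162, 1074.5 and 1010.3 CPM against 1382, 2154 and 1536 in nt, with no overlap (log2 fold change -0.63 ± 0.17, edgeR adjusted p 0.0126). Without replicate 2 its adjusted p was 0.403 and without replicate 3 0.162.

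Over the 33 siRNAs the mean summed counts ran from 0.361% in siNcor1 to 0.668% in siBptf, and 27 of the 33 siRNAs overlapped nt. Set against the nt library of the same replicate, a comparison added after the data were seen, 15 siRNAs lay below nt in every replicate and siBptf alone above. Mock, averaged within each replicate, also lay below nt in every replicate, with ratios of 0.972, 0.718 and 0.838. In siBptf the 3 libraries held 0.669%, 0.687% and 0.647%, all above nt, and no single gene passed the edgeR test there, while Birc5 was called higher with nt and Mock as control (not with the Mock columns of one name summed) and Cenpe without replicate 3. Among the 15 were siPrmt5 (ratios of 0.783, 0.731 and 0.773), siBard1 (0.865, 0.704 and 0.708) and siPou5f1 (0.911, 0.903 and 0.729), whose ranges overlap nt. In 5 siRNAs all libraries lay below nt, among them siNcor1 (0.337%, 0.379% and 0.368%), siKmt2e (mean 0.384%), siWhsc1l1 (0.390%) and siCdk1 (0.391%). The count moved with the replicates: without replicate 1, 23 siRNAs lay wholly below nt, without replicate 2 13 and without replicate 3 5. On the TMM-scaled library size 9 lay below, siBard1 and siWdr5 among them, and 0 above. Without Hmgb2, Cks1b, Arl6ip1 and Bub3 8 lay below, siBard1 among them.

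**Figure D4:**
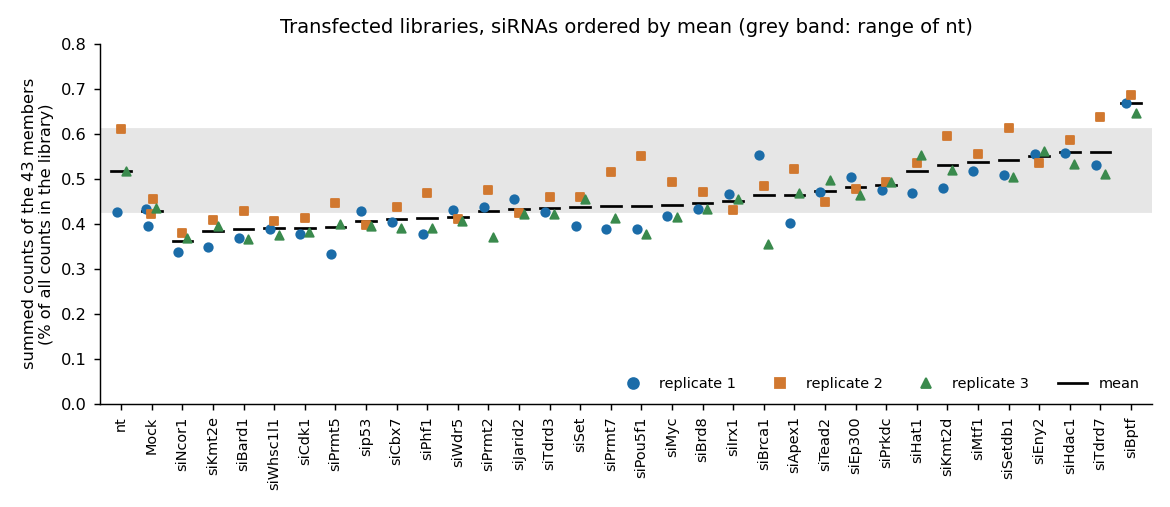
Summed counts of the 43 genes as a percent of all counts (vertical axis) in each transfected library, for nt, Mock and 32 of the 33 siRNAs ordered by their mean (horizontal axis), with replicates as symbols, means as bars and the range of nt as a grey band. siBptf lies wholly above the band, at 0.647% to 0.687%, and siNcor1 is lowest with a mean of 0.361%.

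By gene, an edgeR test for any difference among the transfected conditions called 15 of the 26, where 45.1% of all genes were called, and 7 without the replicate block. Against nt, the 33 siRNAs gave 19 calls in 8 siRNAs, 18 of them lower, which is 2.21% of 858 tests of a listed gene, where 2.57% of the tests of all genes were called. They fell on few genes: Arl6ip1 was lower in 5 siRNAs, Smc2 in 4, Hmgb2 in 3, and Kif11 and Kif20b in 2 each. Arl6ip1, Smc2, Hmgb2 and Kif20b are also the 4 genes called higher in nt than in untransfected Day06 cells, and nt is the control of all these calls. What part nt itself has in them was not tested. Without the replicate block the calls numbered 7, under limma on the deposited log2 values 3 and with nt and Mock together as control 34 (3.96% of the tests, where 3.38% of those of all genes were called), or 31 with the Mock columns of one name summed. For the other 25 siRNAs edgeR called 0 genes, with 1 to 6 of 26 at an unadjusted p under 0.05, where 0.913% of the tests of all genes were called. There DESeq2 called 5 (Top2a in siBrd8, and Arl6ip1 in siIrx1, siPhf1, siPrmt2 and siPrmt5) and limma 1 (Cenpe in siHdac1). RLE called 1 (Arl6ip1 in siPhf1), and the fits of transfected libraries only, without replicate 1 and without replicate 3 called 2, 2 and 3. With nt and Mock as control 7 were called, 4 of them higher: Birc5 in siBptf, Cenpe in siEny2 and siHdac1 and Mki67 in siHdac1, beside Arl6ip1 lower in siIrx1, siPhf1 and siPrmt5.

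In siBard1 7 of the 26 genes were lower and 0 higher, 26.9% of them, where 10.3% of all tested genes were called, 5.54% higher and 4.78% lower. Their median was -0.30, against -0.02 over all genes, and over all 43 without the filter it was -0.19. With nt and Mock as control it was -0.12, with 12 of 26 above 0, and without replicate 2 or 3 -0.45, over the 30 and 19 genes that then passed the filter. Smc2 was at 433, 538 and 719 CPM in nt and at 112, 223 and 285 in siBard1, with no overlap (log2 fold change -1.39 ± 0.26, edgeR adjusted p 2.59e-05), and was called in all 10 alternatives. Its 5 Mock libraries ran from 240.3 to 521 CPM, 1 of them within the siBard1 range. Kif11, the kinesin that pushes spindle poles apart, was at 167, 74.8 and 98.0 CPM in nt and at 31.9, 17.1 and 0 in siBard1, where it had 3 counts and lay 9.57-fold below nt (95% limits from counting of 2.94 and 49.3) at an edgeR adjusted p of 0.0019. All its siBard1 libraries lay below nt. Kif20b was at 283, 389 and 286 CPM in nt and at 112, 171 and 111 in siBard1, again below every nt library (-1.32 ± 0.36, edgeR adjusted p 0.00679). All siBard1 libraries of Kif20b lay within the range of its Mock libraries, given below for siWdr5. Its mean was 131 CPM in siBard1, beside 114 in untransfected Day06 cells.

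The other siBard1 calls were Ube2c (-1.20 ± 0.41), Hmgb2 (-1.20 ± 0.35), Top2a (-0.77 ± 0.25) and Arl6ip1 (-0.59 ± 0.16). Ube2c and Hmgb2 did not overlap nt, and Top2a and Arl6ip1 did. Leaving out replicate 1, 2 or 3 gave 5, 3 and 1 calls, and without replicate 3 the adjusted p was 0.0998 for Kif20b, 0.204 for Hmgb2, 0.217 for Arl6ip1, 0.143 for Top2a and 0.253 for Ube2c. Kif11 did not pass the filter there. Without replicate 2 it was 0.0661 for Hmgb2 and 0.103 for Arl6ip1, and Top2a and Ube2c passed in none of these fits. Without the replicate block 4 were called and under limma 1. Of the other lists, Ncapg, a condensin subunit, was lower among other G2/M genes (-1.32 ± 0.37) and Dut among S phase genes (-0.87 ± 0.23). Of the regulators 4 were higher and 0 lower, among them Cdk6 (1.83 ± 0.45), Cdkn1a (1.06 ± 0.22) and Ccnd2 (1.06 ± 0.17), all edgeR. The fibroblast markers summed to 0.274% to 0.343% of counts in siBard1 and 0.169% to 0.246% in nt, and those of early reprogramming epithelium to 0% to 0.00733% and 0.00998% to 0.0186%, and their part in these results was not tested.

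In siWdr5 4 genes were lower and 1 higher, 19.2% of the 26, where 27.2% of all tested genes were called, 12.2% higher and 15.1% lower. The median of the 26 was -0.12 against 0.00 over all genes, and without replicate 1, 2 or 3 it was -0.43, -0.10 and 0.00. With nt and Mock as control it was 0.02, with 13 of 26 above 0, and in the fit of transfected libraries only -0.36, over 21 genes. Over all 43 without the filter it was -0.10. RLE scaling moved that of all genes by 0.17 and turned the median of the 26 to 0.05, and the median of the 26 less that of all genes was -0.13 under both. Hmgb2 was at 300, 299 and 261 CPM in nt and at 106, 71.1 and 85.4 in siWdr5 (log2 fold change -1.67 ± 0.37, edgeR adjusted p 0.00018). Kif20b was at 145, 99.5 and 123 CPM in siWdr5 (-1.34 ± 0.36, edgeR adjusted p 0.00243), and Arl6ip1 at 753, 924 and 816 against 1382, 2154 and 1536 in nt (-1.01 ± 0.17, edgeR adjusted p 3.56e-07). All siWdr5 libraries of these 3 genes lay below all of nt, and the calls held without each replicate. Hmgb2 and Arl6ip1 were also below all 5 Mock libraries, which ran from 173 to 522 CPM and from 1358 to 1987 CPM, while those of Kif20b, from 103 to 273 CPM, overlapped siWdr5. Their means in siWdr5 were 87.4 and 831 CPM, beside 76.3 and 1017 in untransfected Day06 cells.

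Smc2 was lower in siWdr5 (log2 fold change -0.71 ± 0.24) and Cenpe higher (0.96 ± 0.38), both with overlap. Cenpe was at 50.0, 59.8 and 188 CPM in nt and at 291, 114 and 275 in siWdr5, and its adjusted p became 0.407 and 0.113 when replicates 1 and 2 were dropped. That of Smc2 became 0.128 and 0.507 when replicates 2 and 3 were. With nt and Mock as the control 9 of the 26 genes were called, 34.6%, where 34.2% of all tested genes were: Smc2 was no longer among them, Ube2c and Hmmr were lower, and Smc4, Bub3 and Mki67 higher. Of the other G2/M genes 4 of 13 were lower and 0 higher (median -0.79), among them Pttg1, securin (-1.79 ± 0.58), and Sgol2a, shugoshin (-1.27 ± 0.40). Of the S phase genes 3 of 15 were lower, Nasp (-1.29 ± 0.36), Dut (-1.20 ± 0.24) and Pcna (-0.76 ± 0.31). Of the regulators 5 of 8 were higher, among them Cdk6 (1.93 ± 0.44), Ccnd2 (1.32 ± 0.16) and Cdkn1a (1.05 ± 0.22), all edgeR. The fibroblast markers summed to 0.440% to 0.535% of counts in siWdr5 and 0.169% to 0.246% in nt, and the epithelial markers to 0.00225% to 0.00632% and 0.00998% to 0.0186%, and their part in these results was not tested.

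In siBrca1 2 genes were lower and 0 higher, 7.69% of the 26, where 4.22% of all tested genes were called, 2.49% higher and 1.73% lower. The median of the 26 was -0.37, with 22 of 26 below 0, against 0.00 over all genes, and it was -0.08 with nt and Mock as control and 0.05 under limma, over 41 genes. Without replicate 1, 2 or 3 it was -0.66, -0.30 and -0.11, over 27, 30 and 19 genes, and without the filter -0.29 over all 43. Hmgb2 was at 145, 91.2 and 130 CPM, below every nt library (log2 fold change -1.18 ± 0.38, edgeR adjusted p 0.0487). Arl6ip1 was at 1116, 1459 and 824 CPM and overlapped nt (-0.62 ± 0.17, edgeR adjusted p 0.0182). Hmgb2 passed in no fit without a replicate, and Arl6ip1 in 1 of 3, without replicate 1 (0.0241), and without the replicate block 0 genes were called, as under limma, and 1 under DESeq2. Over all 26 genes 5 had an unadjusted p under 0.05 in the fit with the block. The S phase gene Dut was lower (-1.16 ± 0.26), and the regulators Cdkn1a (0.86 ± 0.24) and Ccnd2 (0.71 ± 0.17) were higher. The fibroblast markers summed to 0.248% to 0.360% here and the epithelial markers to 0% to 0.0126%, and their part was not tested.

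**Figure D5:**
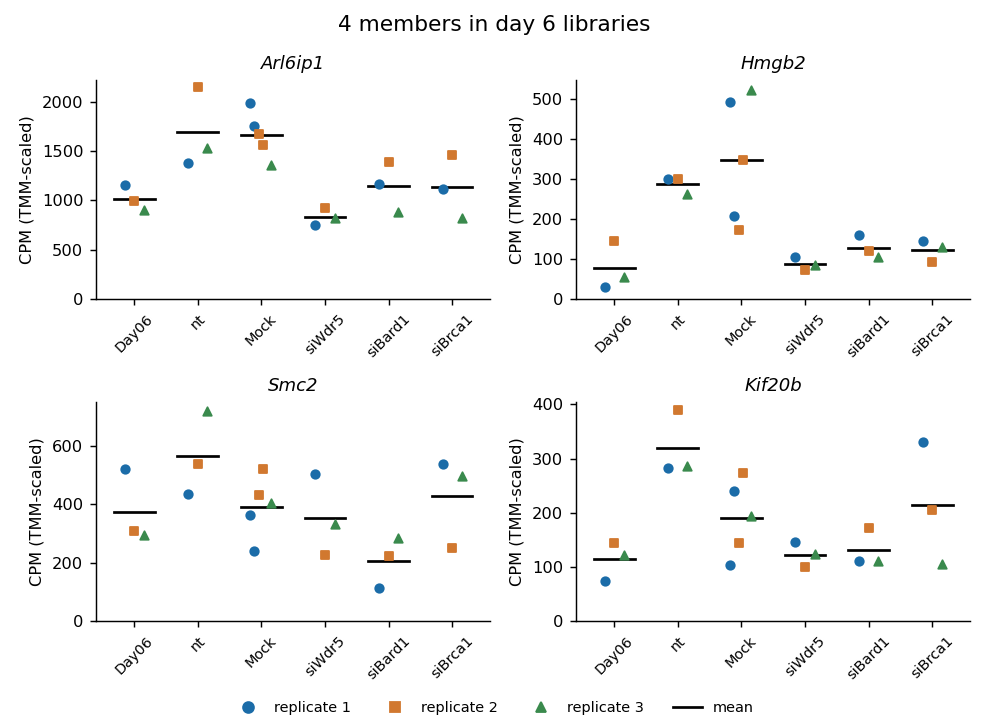
CPM on the TMM-scaled library size (vertical axes) of Arl6ip1, Hmgb2, Smc2 and Kif20b in the untransfected Day06 libraries and in the nt, Mock, siWdr5, siBard1 and siBrca1 libraries of day 6 (horizontal axes), with replicates as symbols and means as bars. Hmgb2 lies at 71.1 to 160 CPM in the 3 knockdowns and at 261 to 300 in nt, and Mock spreads from 173 to 522.

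Set directly against each other, siWdr5 and siBrca1 differed in 2 of the 26 genes, where 9.99% of all tested genes were called. Cks1b was at 186, 160 and 118 CPM in siBrca1 and at 13.2, 56.9 and 47.5 in siWdr5, lower in every library (log2 fold change -1.86 ± 0.57, edgeR adjusted p 0.018), but its adjusted p was 0.0555 to 0.256 in the fits without a replicate. Cenpe was higher in siWdr5 by 1.51 ± 0.45, with overlap, and without replicate 3 its adjusted p was 0.452. Between siWdr5 and siBard1 edgeR called 0 of the 26, with 7 at an unadjusted p under 0.05, where 8.36% of all genes were called. Between siBrca1 and siBard1 it called 0, with 4, where 0.863% were. Over the 3 comparisons DESeq2 called 3, limma 0 and edgeR without the replicate block 0. Thus Smc2, called lower in siBard1 and not in siBrca1 against nt, was not shown to differ between them.

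The remaining calls of the screen were single genes. Arl6ip1 was at 1013, 1206 and 856 CPM in siPou5f1, below all of nt (log2 fold change -0.73 ± 0.17, edgeR adjusted p 0.0018), where 2.19% of all tested genes were lower. Kif11 was at 28.6, 28.4 and 27.1 CPM in siEp300 (-1.87 ± 0.58), where 2.66% were lower, and Smc2 at 285, 167 and 440 in siNcor1 (-0.85 ± 0.26), where 1.03% were, and at 187, 197 and 415 in siPrkdc (-0.97 ± 0.27), where 1.19% were. Smc2 in siNcor1 overlapped nt, and the others did not. Dropping any replicate ended the calls of Smc2 in siNcor1 and siPrkdc. That of Kif11 in siEp300 was lost without replicate 1 (0.266) or 2 (0.0702), and without replicate 3 the gene did not pass the filter. The call of Arl6ip1 in siPou5f1 held without replicate 1 alone.

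Counting 3′ ends assigns reads of near-identical copies with some doubt. In the last 300 bases of their transcripts Ccnb1, Cenpf, Cks1b, Hmgb2 and Ube2c match 4, 16, 1, 5 and 1 other genes over at least 150 bases at an identity of at least 95%, and their values are uncertain to that extent. The 4 matching genes of Hmgb2 in the count table held 606 counts against 1766 of Hmgb2, and the 15 of Cenpf there held 3346 counts, more than the 840 of Cenpf itself, so that its call is uncertain. The 1 matching gene in the table held 44 counts against 1187 for Ube2c, 80 against 761 for Cks1b and 7 against 1586 for Ccnb1.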

How the data were processed

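The authors sequenced 3 replicate pools of barcoded CEL-Seq2 libraries, aligned reads to mm10 with Bowtie2, and deposited UMI-corrected counts per gene (GENCODE vM13) and a table of log2 values, of counts normalised to the library total, with the batch regressed out. The counts, of 129 libraries, were used for all main results. The 2 libraries missing from the log2 table, with 6403 and 7981 counts, were left out. Conditions came from column names, and the pool of each column from the labels.

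Counts of all 127 libraries were fitted together in edgeR 4.0.16 (R 4.3.3) by quasi-likelihood, with TMM scaling (factors 0.825 to 1.39), filterByExpr by condition, and terms for condition and replicate. The replicate number is a block because it marks a shared sequenced pool. Deviations from the condition means had a median correlation of 0.0981 between libraries of the same number and -0.0685 between others. Deviations within a condition cancel out in sum, which makes the second value negative where the first is positive, so that it is not a separate result. Adjustment of p-values was Benjamini-Hochberg's, over the 3013 genes of each comparison, with a threshold of 0.05. SE is that of the log2 fold change. CPM are scaled to the TMM-corrected library size, while summed counts are a percent of all counts. Counting intervals are exact, at 95%.

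The members and lists were chosen with earlier results of these data known. Genes were named by a rule: up to 8 called members per direction and comparison, the 6 members with most counts, Cdk1 in siCdk1, paralogs of called cyclin and CKS genes, and up to 3 called genes per direction of each list. Alternatives were RLE scaling, no filter, no block, each replicate left out, separate fits of the time course and of the transfected libraries, nt with Mock as control, DESeq2 1.42.0, and limma 3.58.1 on the deposited log2 values. Matches of transcript ends were found with blastn 2.17.0. Data were simulated on the 3013 genes for siWdr5 against nt, with the same spread for every gene (edgeR dispersion 0.0158) and no replicate effect. In them 98% of genes raised 4-fold and 66% of genes lowered to 0.25 of their level were called, and 34% and 22% of those changed to 2 and 0.5. The changed genes were drawn from all 3013, and these rates may not hold for the listed genes. Values of 1 siRNA and of 1 gene of the lists are counted in the totals and are not reported here by name.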

Additional observations from a re-analysis of the deposited data

Results flagged for a closer look

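Among the 5 Mock libraries, the only group of 4 to 10, 41 measures were looked at, and in 6 of them 1 library stood apart by Dixon's 95% criterion (critical value 0.71), where chance gives about 1 in 20 for measures that vary continuously. In replicates 1 and 2 a pair of these libraries shares a name and may be repeats of 1 sample, so that the 5 may not be separate samples. Cenpe was at 57.6 CPM in a Mock library of replicate 2 and at 129 to 149 in the others. The other 5 measures rest on at most 2 counts per library, where that rate does not apply and a single count decides. Aurka was at 29.9 CPM in the Mock library of replicate 3 and Bub1b at 34.3 CPM in 1 of replicate 1, both with the other 4 libraries at 0. Ckap5 was at 0 in 1 Mock library of replicate 1, where the others had 24.8 to 29.9 CPM, and Kif20a and Racgap1 were each at 0 in the other of replicate 1.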

How the results depend on the processing

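Calls over the 43 genes moved with the filter, the block and single replicates. Against Day00 the 19 calls over the days became 9 without the low-count filter and 9 to 13 without a replicate, and the 6 of Day03 became 2 and 1 to 5. The 14 from Day03 to Day06 became 7 without the filter, 7 under DESeq2 and 7 to 10 without a replicate, and the 16 for any change over days 7 to 14. The 5 of nt against Day06 became 3 without the filter and 2 under limma, and the 0 of Mock 0 to 1 without a replicate. The 19 of the siRNAs became 7 without the replicate block, 6 without the filter, 3 under limma, 34 with nt and Mock as control (31 with Mock columns of one name summed, added after the data were seen) and 8 to 14 without a replicate, and the 15 for any difference became 7 without the block and 8 to 10. For siBard1 the 7 became 4 without the block, 2 without the filter, 1 under limma and 1 to 5 without a replicate. For siWdr5 the 5 became 3, 3, 1 and 3 to 4, and with nt and Mock as control 9 (34.6%, where 34.2% of all genes were called), or 8 with these columns summed. For siBrca1 the 2 became 0, 0, 0 and 0 to 1, and 1 under RLE and under DESeq2. The 2 of the direct comparisons became 0, 0, 0 and 0 to 2, and 4 under RLE. Without Hmgb2, Cks1b, Arl6ip1 and Bub3 the summed ratio of Day06 to Day03 was 3.10 and 8 siRNAs lay below nt. On the TMM-scaled library size the ratio of nt to Day06 was 1.19, and 9 siRNAs lay below nt and 0 above. Against nt of the same replicate, also added then, it was 15 and 1. Without a replicate 5 to 23 lay below and 1 to 4 above. Arl6ip1 on Day03 against Day00 changed sign without replicate 1 (0.17) and without replicate 3 (0.02), where it was -0.43 without replicate 2. The cause of these changes was not tested. The block changed no other count by over 1.5 times. The test for any difference among transfected conditions was not run under limma or DESeq2. Most of the 43 genes have few counts per library. In the simulation, with changed genes drawn from all 3013 tested, most changes of 2-fold were not called, and recovery for the 43 was not measured.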

Other observations

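The 2 libraries left out held few counts. In the siMtf1 library of replicate 3, 41 of 7981 counts came from the 43 genes, 0.514%, and in a Mock library of replicate 3 it was 3 of 6403, 0.0469%.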
